A study of Mus musculus with 4 samples.

Results

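The keratins, claudins and junction proteins described here are 10 genes of simple epithelia: the keratins Krt7, Krt8, Krt18 and Krt19, the claudins Cldn3, Cldn4, Cldn6 and Cldn7, the junctional adhesion molecule gene F11r and the desmoplakin gene Dsp. They were taken by exact gene symbol from the 36808 genes listed for each library, and each symbol matched 1 gene. RNA came from whole mouse embryos of 2 genotypes at 2 stages, with 1 directional mRNA-seq library for each of the 4 groups. The groups were wild type and Tc/Tc, homozygous for a mutant allele of T (Brachyury), at E7.5 to 8.0 (called E8) and the same genotypes at E10.0 to 10.5 (called E10). The strain of origin of every group was (C3H/HeH x 101/H)F1. Neither the number of embryos in a library nor the share of extraembryonic membrane in it is given in the sources used here.

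Simple keratins form the intermediate filaments of single-layered epithelia, and each filament pairs a type II keratin (Krt7, Krt8) with a type I keratin (Krt18, Krt19). Claudins are the membrane proteins whose strands seal or tune the tight junction between neighbouring cells, F11r encodes the adhesion molecule JAM-A at the same junction, and desmoplakin anchors keratin filaments to the desmosome. In the early mouse embryo Krt8 and Krt18 are known from trophectoderm, visceral endoderm, surface ectoderm, gut and notochord, and T is required for the mesoderm that leaves the epithelial epiblast through the primitive streak.

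Values are FPKM (fragments per kilobase of transcript, scaled by the authors to library size), so levels of different genes can be compared per length. Ratios are on the log2 scale after 1 was added to each FPKM, a step that shrinks the ratio of weakly expressed genes, and a gene is called higher or lower at a fold of 2 or more on that scale. With 1 library per group there is no replicate error and no test, and a call is a description of a pair of libraries. The total FPKM per library ran from 598365 to 737448. The number of mapped fragments is unknown, but among genes under 0.3 FPKM the most frequent ratio of values was 1.020 for Tc/Tc over wild type at E8 (47 of 1748 genes) and 0.916 at E10 (42 of 1604), a ratio that is near 1 where the depths are equal. The only error that could be measured was that of estimating 1 library in another table, where the SD of the log2 difference over all genes was 0.061 for wild type E8 and 0.174 for both wild type E10 and Tc/Tc E8. In whole-embryo RNA, fewer cells of a type and less RNA per cell cannot be told apart.

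The 10 genes spanned a wide range of levels. Krt18, the type I partner of Krt8, stood at 133 FPKM in wild type E8, 205 in Tc/Tc E8, 30.2 in wild type E10 and 115 in Tc/Tc E10. Krt8, the type II partner, stood at 99.1, 150, 26.6 and 95.1 FPKM in the same order. For both genes wild type E10 was the low library and Tc/Tc E8 the high one, with wild type E8 and Tc/Tc E10 between them. Krt8 and Krt18 were estimated identically in every table that held the same library. At E8 they exceeded 92.9% and 94.9% of the genes at 1 FPKM or more in wild type; in wild type E10 those shares were 76.6% and 79.1%, and in Tc/Tc E10 92.6% and 93.9%.

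Krt19, a small type I keratin without a tail domain, had another order. It stood at 14.4 FPKM in wild type E8, 17.9 in Tc/Tc E8, 6.80 in wild type E10 and 29.3 in Tc/Tc E10. Krt7, a type II keratin of ducts and many glandular epithelia, stood at 11.2, 6.41, 10.7 and 18.0 FPKM. For both of these keratins Tc/Tc E10 was the highest library, and for Krt7 Tc/Tc E8 was the lowest. Krt7 in wild type differed between E8 and E10 by less than the re-estimation error, with the order of these 2 libraries turning over in the other tables (11.2 and 11.5 FPKM).

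Cldn6, a claudin of embryonic epithelia and endoderm, was the most abundant of the 4 claudins in every library, at 47.3 FPKM in wild type E8, 93.7 in Tc/Tc E8, 12.7 in wild type E10 and 42.3 in Tc/Tc E10. Cldn7, which also lies along the lateral membrane, stood at 19.4, 59.7, 6.53 and 17.6 FPKM. Both had Tc/Tc E8 at the top and wild type E10 at the bottom, and the remaining pair, wild type E8 and Tc/Tc E10, were 0.16 and 0.14 apart in log2 FPKM. Cldn4, one of the barrier-forming claudins that bind Clostridium enterotoxin, stood at 5.85, 4.41, 2.77 and 5.67 FPKM. Cldn3, another enterotoxin receptor, was the lowest of the 10 genes in each library, at 0.980, 2.59, 1.94 and 2.13 FPKM. Cldn3 therefore entered the E8 genotype comparison only through its Tc/Tc value, and the order of its 3 libraries other than wild type E8 changed in the other tables.

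F11r stood at 29.3 FPKM in wild type E8, 43.1 in Tc/Tc E8, 8.56 in wild type E10 and 29.3 in Tc/Tc E10. Dsp stood at 32.7, 43.4, 12.1 and 31.7 FPKM. Both were low in wild type E10, and wild type E8 and Tc/Tc E10 were close together. With these estimates Tc/Tc E8 stood above wild type E8 by 0.55 log2 units for F11r and 0.41 for Dsp. The second estimate of Tc/Tc E8 was 29.9 FPKM for F11r and 32.7 for Dsp, which put 3 libraries within 0.029 log2 units of their neighbour for F11r and within 0.041 for Dsp.

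**Figure D1:**
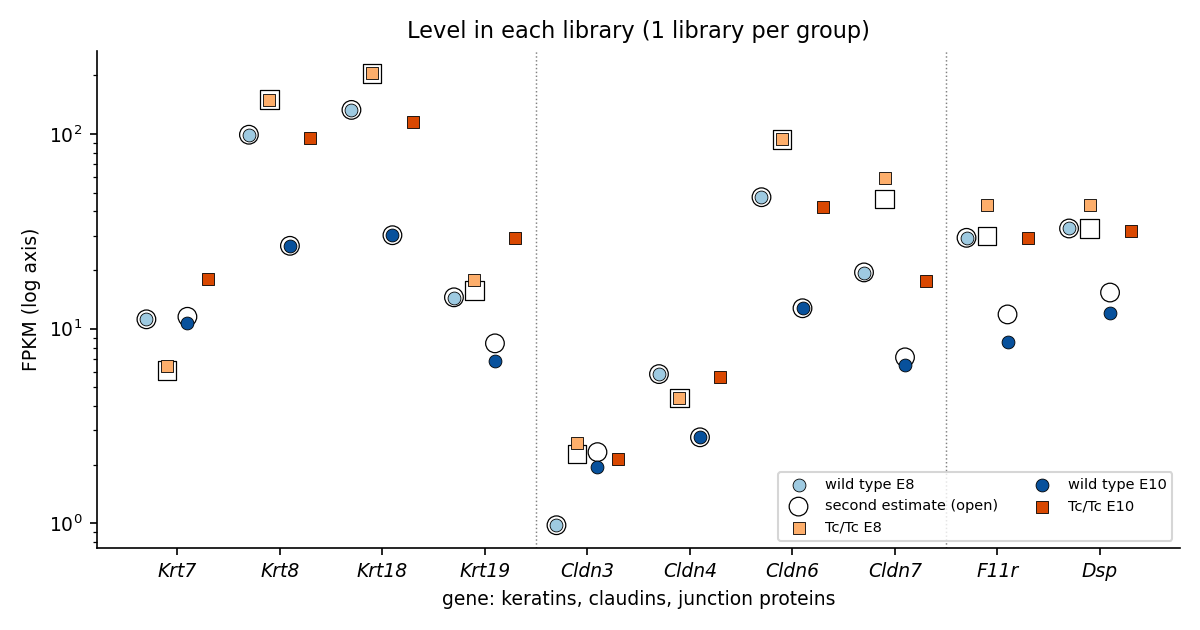
FPKM on a log axis for each of the 10 genes in the 4 libraries (1 library per group; filled points, circles for wild type and squares for Tc/Tc), with second estimates of the same library from another table as open points. Wild type E10 is the lowest library for 8 of the genes shown, the exceptions being Krt7 and Cldn3, and Krt18 ranges from 30.2 to 205 FPKM. The share of all genes that were lowest in wild type E10 was not counted. Over all genes, 66.9% had a log2 ratio of Tc/Tc over wild type above 0 at E10. In wild type, 44.2% had a log2 ratio of E10 over E8 above 0.

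Several of the genes lie beside each other in the genome. In the RefSeq annotation of GRCm38.p6, Krt8 and Krt18 are next to each other on chromosome 15, with no protein-coding gene between them, and Cldn3 and Cldn4 are next to each other on chromosome 5. The level of Krt8 over that of its neighbour and partner Krt18 was 0.746 in wild type E8 and 0.733 in Tc/Tc E8. It was larger in both E10 libraries, at 0.882 in wild type and 0.827 in Tc/Tc. Cldn3 and Cldn4 had different orders over the 4 libraries, as given above.

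Of the 10 genes, all but Krt19 had an upstream window in the RefSeq promoter table of GRCm38.p6, with 10 windows because Cldn7 has 2 annotated starts. The 250 bases before the start are shown for the keratin pair and for the most abundant claudins, which are among the genes that were lowest in wild type E10. Capitals mark the letters CAGGTG, on either strand (CACCTG when read in reverse), an E-box that Snail and Zeb repressors of epithelial genes can bind. The Krt8 window is chr15:102004343-102004592 on the minus strand, the Krt18 window chr15:102027966-102028215 on the plus strand, the Cldn6 window chr17:23679115-23679364 on the plus strand and the second Cldn7 window chr11:69965171-69965420 on the plus strand.
Krt8: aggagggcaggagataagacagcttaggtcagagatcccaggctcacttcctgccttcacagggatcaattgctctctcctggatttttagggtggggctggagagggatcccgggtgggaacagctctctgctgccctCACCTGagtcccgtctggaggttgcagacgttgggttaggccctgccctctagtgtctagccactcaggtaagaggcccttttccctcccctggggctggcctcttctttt
Krt18: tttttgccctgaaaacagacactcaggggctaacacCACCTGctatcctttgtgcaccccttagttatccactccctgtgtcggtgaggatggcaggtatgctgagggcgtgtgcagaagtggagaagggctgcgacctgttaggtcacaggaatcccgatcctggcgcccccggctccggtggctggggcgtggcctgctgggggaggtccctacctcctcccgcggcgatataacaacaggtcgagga
Cldn6: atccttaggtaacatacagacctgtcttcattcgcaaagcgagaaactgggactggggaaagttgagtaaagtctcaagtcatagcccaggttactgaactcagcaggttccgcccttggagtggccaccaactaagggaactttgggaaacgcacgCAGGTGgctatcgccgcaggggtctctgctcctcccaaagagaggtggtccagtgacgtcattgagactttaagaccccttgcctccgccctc
Cldn7: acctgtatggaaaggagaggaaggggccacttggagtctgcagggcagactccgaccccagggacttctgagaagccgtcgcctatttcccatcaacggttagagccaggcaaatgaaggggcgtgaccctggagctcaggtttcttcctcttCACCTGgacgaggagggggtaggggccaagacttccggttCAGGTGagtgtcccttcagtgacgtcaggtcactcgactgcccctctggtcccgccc
The letters CAGGTG were found in 7 of the 10 windows, in Krt7, Krt8, Krt18, Cldn4, Cldn6, Cldn7 and F11r, and in 17.2% of all 32851 windows of the same length. Krt8, Krt18, Cldn4, Cldn6, Cldn7 and F11r both held a match and were lowest in wild type E10, and Cldn3 had neither trait. Dsp, also lowest in wild type E10, had no match, and Krt7, which was not lowest there, had a match. The first Cldn7 window, not shown, had no match. A link between match and level was not tested. In Krt8 the match began 111 bases before the start, in Krt18 214 and in Cldn6 93, and the second Cldn7 window held a pair of matches, 97 and 57 bases before the start. The GC box letters GGGCGG were in 7 of 10 windows against 32.7% of all windows, TGANTCA (the AP-1 site) in 2 against 6.75%, CCGGTT (a part of the grainyhead-like site) in 1 against 5.62%, and the T-box half-site letters GGTGTGA in 0 against 3.33%. Both strands were searched for all 5 motifs, and GGTGTGA can overlap CAGGTG. The median GC content was 60.2% in these windows and 52.4% in all windows. A match is a description of the letters and not a bound site.

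The first genotype comparison asked how these genes stood in Tc/Tc at the stage at which T acts in the streak, E8. Cldn7 was higher in the Tc/Tc library, and the other 9 genes were within the fold of 2. Thus 1 of 10 was called higher and 0 lower, where 4.21% of 13547 genes were called higher and 3.0% lower. Over all genes the median log2 ratio was 0.06 and over these genes it was 0.57, with 8 ratios above 0 and 2 below. Rescaled to equal totals, which moved the median of all genes to -0.14, the calls over all genes went from 571 higher and 407 lower to 371 higher and 551 lower.

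Cldn7 had a log2 ratio of 1.57 at E8, or 1.21 with the second estimate of Tc/Tc, 46.4 FPKM. Cldn6 fell just short, at 0.97, with 93.7 against 47.3 FPKM. The partners Krt8 and Krt18 had ratios of 0.59 and 0.62, or 1.51 and 1.54 times the wild-type FPKM. Below 0 were Krt7 at -0.72 and Cldn4 at -0.34. For the junction proteins the value depended on the table, since F11r had 0.54 and Dsp 0.40 with the first estimates and 0.03 and -0.002 with the second.

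At E10 the Tc/Tc library was higher for 7 of the 10 genes and lower for 0, where 4.94% of 14265 genes were called higher and 3.08% lower. The 7 were 3 of 4 keratins, 2 of 4 claudins and both junction proteins. The median log2 ratio over all 10 was 1.49 against 0.16 over all genes. Krt19 had the highest ratio, 1.96, a level 4.31 times that of wild type, followed by Krt18 at 1.89 and Krt8 at 1.80. Next came F11r and Cldn6, both at 1.66, then Dsp at 1.32 and Cldn7 at 1.30. With the ratios centred on the median of all genes these 7 lay between 1.14 and 1.80, and the calls over all genes went from 705 higher and 440 lower to 487 higher and 568 lower.

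Cldn4, Krt7 and Cldn3 were within the fold of 2 at E10, with log2 ratios of 0.82, 0.70 and 0.09. The sign of Cldn3 was not fixed, since it became -0.07 when centred and -0.08 with the second estimate of wild type. That estimate also brought Dsp to 1.0 (15.3 FPKM in wild type), F11r to 1.24 and Krt19 to 1.69. The ratios of Krt8, Krt18, Cldn4 and Cldn6 were the same in both sets of estimates.

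The genotype ratio was larger at E10 than at E8 for 8 of the 10 genes, from libraries that the 2 stages do not share. The all-gene median was also larger at E10, at 0.16 against 0.06 at E8 in log2 units. Of the genes measured at each stage, 56.5% had a ratio above 0 at E8 and 66.9% at E10. These values do not give the direction of each gene. How many of all genes had a larger ratio at E10 was not counted, so the 8 of 10 has no all-gene share beside it. The gap between stages was 1.67 log2 units for Krt19, 1.42 for Krt7, 1.27 for Krt18, 1.20 for Krt8, 1.16 for Cldn4, 1.13 for F11r, 0.92 for Dsp and 0.69 for Cldn6. It was -0.27 for Cldn7, or -0.02 with the second estimates, and -0.77 for Cldn3. The difference between stages was not tested, having 1 library in each group.

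**Figure D2:**
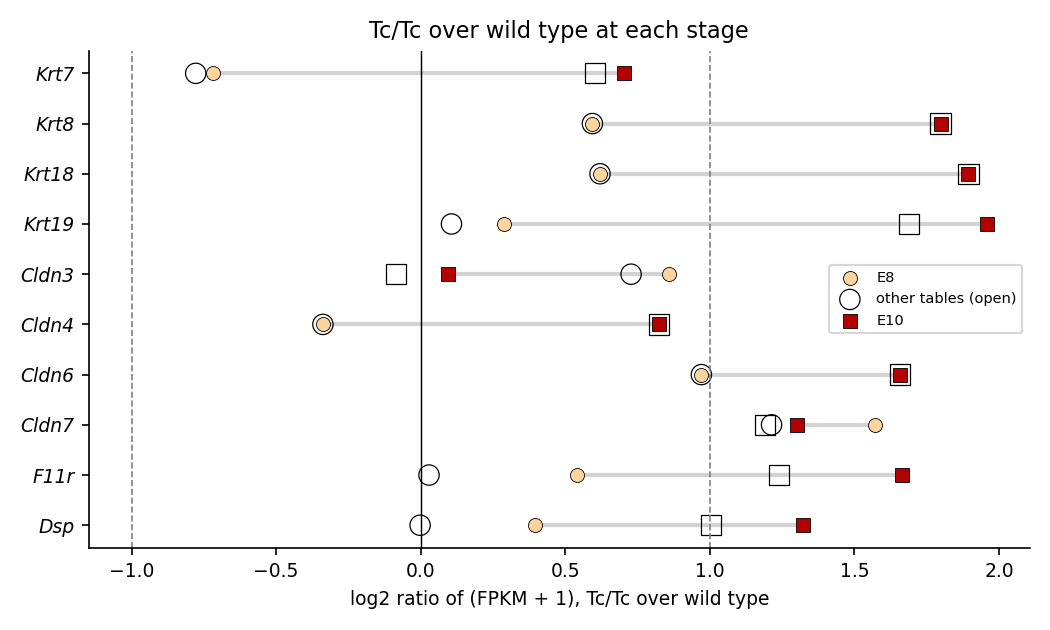
Log2 ratio of (FPKM + 1), Tc/Tc over wild type, for each gene at E8 (circles) and E10 (squares), each from 1 library per genotype, with values from the other tables as open symbols and dashed lines at a fold of 2. At E10, 7 genes lie beyond the right dashed line, led by Krt19 at 1.96, while at E8 Cldn7 alone does, at 1.57.

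The stage comparisons used the same libraries as the genotype comparisons, so they are not independent of them. In wild type, 6 of the 10 genes were lower at E10 than at E8 and 0 higher, where 5.78% of 13782 genes were called lower and 5.36% higher. Krt18 had a log2 ratio of -2.10, Krt8 -1.86, Cldn6 -1.82, F11r -1.67, Cldn7 -1.44 and Dsp -1.36. Krt19 was just within the rule at -0.99, Cldn4 stood at -0.86, Krt7 at -0.07 and Cldn3 at 0.57. The median was -1.40 over these genes and -0.07 over all genes. With estimates from the stage table the calls over all genes were 1048 higher and 734 lower in place of 739 and 796, while the 6 calls here stayed at 6. Those estimates brought F11r to -1.24, Dsp to -1.05 and Krt19 to -0.72.

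In Tc/Tc, 2 of the 10 genes were lower at E10 than at E8, Cldn7 at -1.71 and Cldn6 at -1.13, and 1 was higher, Krt7 at 1.36. Of 13717 genes, 4.45% were called lower and 6.23% higher. Krt18 and Krt8 had ratios of -0.83 and -0.65, Krt19 of 0.68, and Cldn4 of 0.30. Rescaled to equal totals, Cldn6 came to -0.86 and was no longer called, and the calls over all genes went from 855 higher and 611 lower to 1279 and 402. F11r and Dsp had ratios of -0.54 and -0.44, or -0.03 and -0.04 with the other estimate of Tc/Tc E8.

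**Figure D3:**
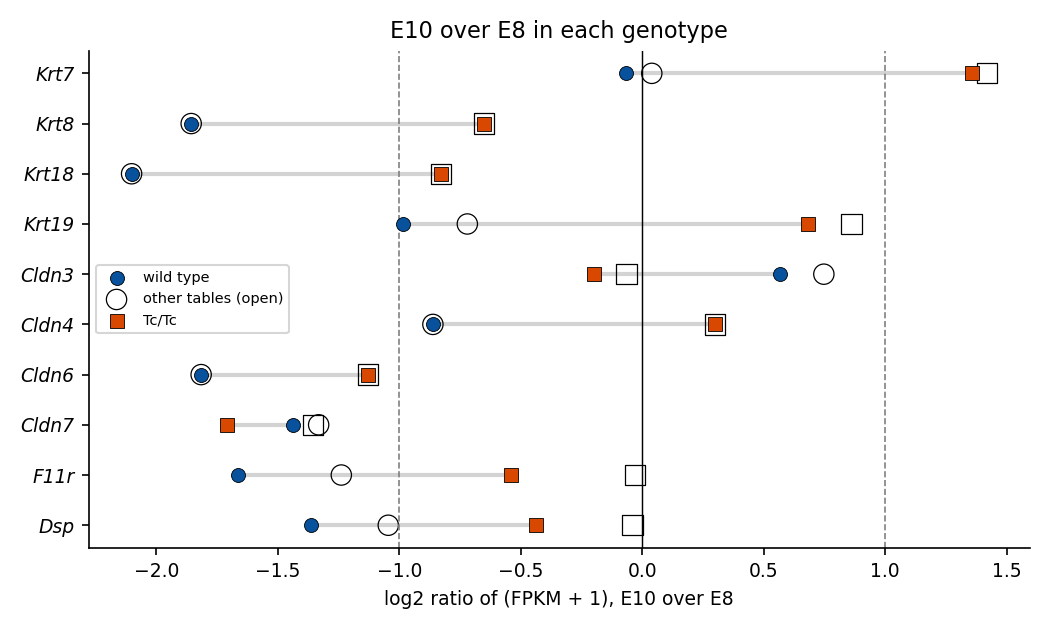
Log2 ratio of (FPKM + 1), E10 over E8, for each gene in wild type (circles) and Tc/Tc (squares), each from 1 library per stage, with values from the other tables as open symbols and dashed lines at a fold of 2. In wild type 6 genes lie beyond the left dashed line, down to -2.10 for Krt18; in Tc/Tc Cldn6 and Cldn7 do, and Krt7 lies at 1.36 on the other side.

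Within the keratin and claudin pools the shares of the abundant members (Krt8, Krt18, Cldn6 and Cldn7) varied by less than 1.5 times between libraries and those of Krt7, Krt19, Cldn3 and Cldn4 by more. The summed keratin level was 258 FPKM in wild type E8, 379 in Tc/Tc E8, 74.3 in wild type E10 and 257 in Tc/Tc E10. Krt8 supplied 38.5%, 39.6%, 35.9% and 37.0% of that sum, whereas Krt7 supplied 4.34%, 1.69%, 14.3% and 6.99%. The ratio of type II to type I keratin was 0.748, 0.703, 1.01 and 0.784. These 4 genes held between 94.3% and 98.7% of the summed level of all 50 keratin genes listed. Because FPKM is per length, these shares describe transcripts.

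The summed level of the 4 claudins was 73.6 FPKM in wild type E8, 160 in Tc/Tc E8, 24.0 in wild type E10 and 67.7 in Tc/Tc E10. Cldn6 made up 64.3%, 58.4%, 53.1% and 62.5% of it, and Cldn7 26.4%, 37.2%, 27.2% and 25.9%, whereas Cldn3 ran from 1.33% in wild type E8 to 8.08% in wild type E10. They held 68.3%, 78.2%, 50.8% and 63.2% of the level of all 22 claudin genes listed. Set against Cdh1, the E-cadherin gene of adherens junctions, Krt8 stood at 3.96 times its level in wild type E8, 3.73 in wild type E10 and 3.78 in Tc/Tc E10, but at 1.76 in Tc/Tc E8. F11r over Cdh1 likewise was 1.17, 1.20 and 1.16 in those 3 libraries and 0.506 in Tc/Tc E8. Set against Epcam, an epithelial adhesion molecule gene, wild type E10 was the low library instead, with Krt8 at 2.73 times Epcam in wild type E8, 2.28 in Tc/Tc E8, 1.44 in wild type E10 and 2.89 in Tc/Tc E10. F11r over Epcam was 0.807, 0.653, 0.461 and 0.891. In Tc/Tc E8, Cdh1 itself stood at 85.1 FPKM, against 25.0 in wild type E8.

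Other genes of epithelial architecture were taken from 10 lists of 126 genes. Of 81 measured at E8, 9 were higher in Tc/Tc and 1 lower (median log2 ratio 0.25); of 82 at E10, 17 were higher and 4 lower (median 0.50), against the shares of all genes given above. Those counts depended on the scaling: with equal totals 4 were higher at E8 and 16 at E10, and with stage-table estimates there were 6 and 13. With a pseudocount of 5 FPKM they were 4 and 6, and with 0.1 FPKM 15 and 26. The other and stratified-epithelium keratins were near the floor: of 18 listed, 3 could be measured at each stage, and 0 were called at either. Krt5, the basal keratin of stratified epithelium, stood between 1.12 and 1.76 FPKM.

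Among the other claudins, Cldn2, which forms a cation pore in leaky epithelia, was higher in Tc/Tc at both stages. It stood at 6.80 FPKM in wild type E8, 20.8 in Tc/Tc E8 and 4.49 in Tc/Tc E10, and was listed at 0 in wild type E10. Cldn9, next to Cldn6 in the genome, was lower at E8, at 0.655 against 2.38 FPKM. Of 17 other tight junction genes measured at E10, 4 were higher and 1 lower. The scaffold gene Cgn, cingulin, stood at 10.99 against 4.27 FPKM and Amot, an angiomotin that also binds Yap, at 58.2 against 27.0. Lower was Jam2, a paralog of F11r, at 1.76 against 8.39 FPKM. With the ratios centred, Cgn alone of the tight junction genes was called higher at E10, at a log2 ratio of 1.03. With wild type E10 taken from the stage table Lsr alone was, at 1.15, and Cgn had no estimate of wild type there. At E8, 2 of 17 were higher, Tjp3 and Ocln; neither was called with the other estimates, which gave 0.667 FPKM in place of 2.69 for Tjp3 in the same Tc/Tc library.

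Of 10 measured desmosome genes other than Dsp, 2 were higher at E10 and 0 lower. Dsg2, the desmosomal cadherin of simple epithelia, stood at 16.1 against 4.39 FPKM, and the plakophilin gene Pkp2 at 16.5 against 5.16. At E8 Dsg2 was the single desmosome gene called of 9, at 57.6 against 25.5 FPKM, a log2 ratio of 1.14 that became 0.92 with equal totals and was then not called. Of 10 adherens junction genes, Cdh1 was called higher at E8, and at E10 both Cdh1 and Ctnnb1, the β-catenin gene, were. Ctnnb1 had a log2 ratio of 1.01, or 0.30 with the other estimate of wild type, and was not called with equal totals (0.98) or when centred (0.85). Epcam was within the rule at 0.84 and 0.79.

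Of the apical-basal polarity genes, 1 of 11 was higher at E8 and 2 of 11 at E10. Llgl2, a basolateral polarity gene, stood at 33.3 against 14.7 FPKM at E8 and 14.6 against 5.37 at E10, and the apical gene Crb3 at 7.09 against 2.09 at E10. The E8 call of Llgl2, at a log2 ratio of 1.12, was lost with equal totals (0.90) and with the second estimate of Tc/Tc (0.96). The list of epithelial proteases, inhibitors and sorting genes had 5 of 8 called higher at E10 and 2 of 8 at E8, with 0 lower. With equal totals the count at E10 was again 5 but that at E8 was 0, and with a pseudocount of 5 FPKM they were 2 and 0. Tmprss2, a membrane serine protease, stood at 33.4 against 14.2 FPKM at E8 and 8.56 against 0.620 at E10. Spint1, the inhibitor of the protease matriptase, stood at 17.1 against 3.23 at E10 and the apical recycling gene Rab25 at 4.49 against 1.04. Of the epithelial transcription and splicing factors, 0 of 8 were called at E8 and 1 of 7 at E10, the splicing factor gene Esrp1, at 13.5 against 5.50 FPKM. With the ratios centred Esrp1 was just under the fold of 2 and 0 were higher, while Trp63, which encodes the basal epithelial factor p63, was called lower. Trp63 had a log2 ratio of -0.96 at E10, or -1.17 with the second estimate of wild type.

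Among intermediate filament genes outside the keratins, 3 of 10 measured at E10 were lower in Tc/Tc and 0 higher, and those were the neural genes Nefm, Nes and Nefl, with log2 ratios of -2.30, -1.41 and -1.12. Vimentin (Vim), the filament of mesenchyme, stood at 208 FPKM in wild type E8, 255 in Tc/Tc E8, 503 in wild type E10 and 314 in Tc/Tc E10. Krt8 over Vim was accordingly 0.477, 0.589, 0.053 and 0.303. At E8 Lmna, a nuclear lamin gene, was the single one called, at 16.8 against 5.32 FPKM.

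**Figure D4:**
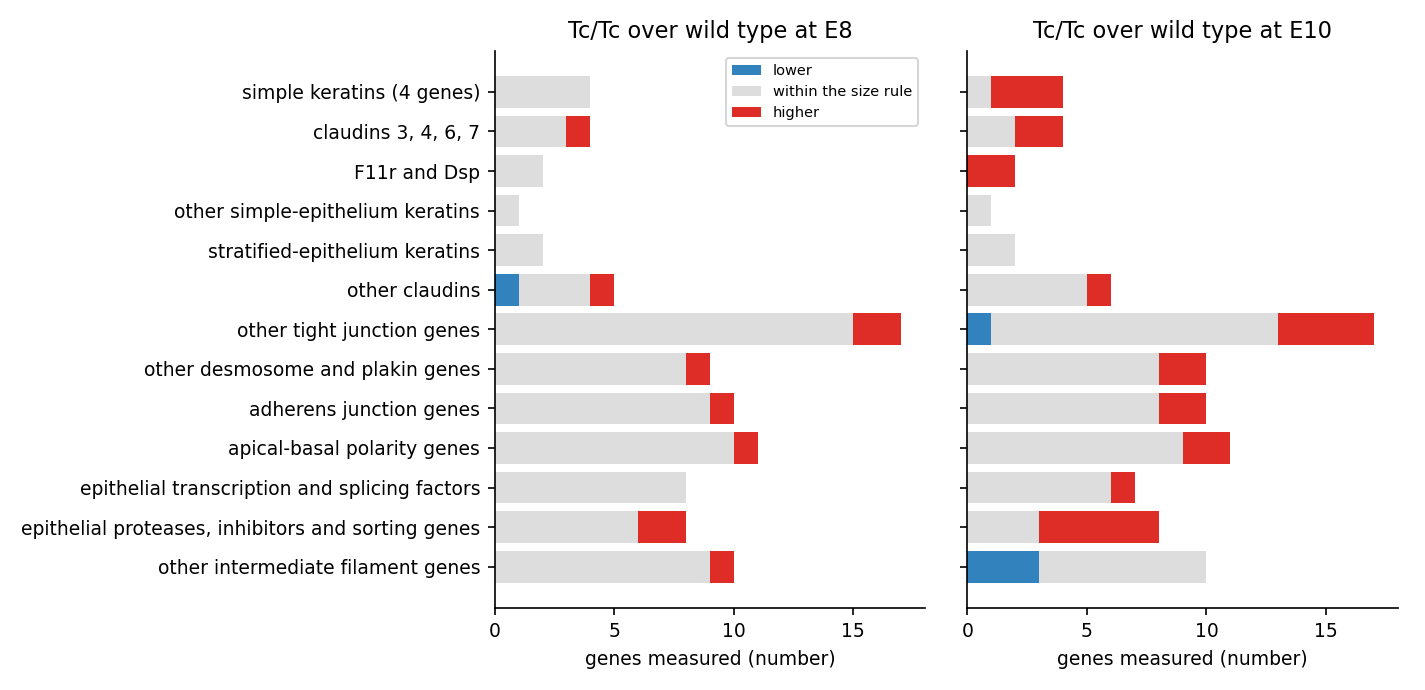
Number of measured genes in each list that were lower (blue), within the fold of 2 (grey) or higher (red) in Tc/Tc than in wild type, at E8 (left) and E10 (right), from 1 library per group. At E10 the red part is 3 of 4 for the simple keratins and 5 of 8 for epithelial proteases, inhibitors and sorting genes, and the blue part is 3 of 10 for other intermediate filament genes.

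Markers of the tissues that could carry these transcripts moved in part with them. Of 14 genes of visceral endoderm and yolk sac, 12 of 12 measured were higher in Tc/Tc at E8 and 13 of 13 at E10, and over the 12 estimated in every library their summed level was 1015 FPKM in wild type E8, 3257 in Tc/Tc E8, 21.3 in wild type E10 and 708 in Tc/Tc E10. Apoc2, Amn and Spink3 of that list were at 0 in wild type E10. The order of these sums by library was that of the summed keratins, in which wild type E8 and Tc/Tc E10 were nearly equal. This order was not particular to visceral endoderm and yolk sac. The trophoblast sums given below had it too, as did those of the desmosome and plakin list and the epithelial protease list. The span of the visceral endoderm and yolk sac list between highest and lowest library was wider than that of the keratins. The keratin sums ran from 74.3 to 379 FPKM.

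Of 7 gut endoderm genes, 2 were higher and 2 lower at E8, and 4 were higher at E10 (2 when centred), with summed levels of 47.8, 35.3, 13.1 and 37.4 FPKM in the order of libraries used above; Pyy was at 0 in Tc/Tc E8 and wild type E10. Surface ectoderm genes, 6 of 8 of which are also on the lists of epithelial architecture, had 0 of 5 called at E8 and 0 of 6 at E10, with sums between 16.2 and 19.0 FPKM. When centred, or with the stage tables, 1 of them, Trp63, was lower at E10, as given above, and it was at 0 in Tc/Tc E8. Notochord genes summed to between 10.1 and 18.0 FPKM, with 1 of 4 lower at E8 and 1 of 3 higher at E10, and Noto was at 0 in wild type E10. Of 6 trophoblast genes 5 were higher at E8, with sums of 6.26, 26.1, 1.56 and 4.77 FPKM, and Esx1, Ascl2 and Rhox6 were at 0 in wild type E10. At E10 the 1 trophoblast gene measured was not called. Of 5 decidual genes 3 had an estimate in every library, summing to between 10.4 and 19.9 FPKM, with 1 higher and 1 lower of 4 at E8 and 1 higher of 3 at E10. The higher call was lost with the stage tables at E8 and by centring at E10. The part of any of these tissues in the keratin, claudin and junction values was not tested.

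As a check of the labelled tissue, genes of heart, neural tube, blood and mesenchyme were detected in each library, but at unlike levels. At E8, 6 of 6 heart genes and 4 of 6 mesenchyme genes were lower in Tc/Tc and 0 higher, where 3.0% of all genes were lower. The heart genes had a median log2 ratio of -3.69, with Myh6 at 0.686 and Nkx2-5 at 0.443 FPKM in Tc/Tc. What this difference between the E8 libraries adds to the genotype ratios of the epithelial genes was not tested. Heart genes summed to 338, 16.9, 364 and 694 FPKM, neural tube genes to 60.3, 55.3, 82.6 and 81.1, embryonic blood genes to 98.5, 91.0, 4840 and 1692, and mesenchyme genes to 78.1, 52.4, 205 and 111. Embryonic blood, mesenchyme and, by a small margin, neural tube genes thus had their highest sums in wild type E10. A link between these sums and the levels of the epithelial genes was not tested.

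**Figure D5:**
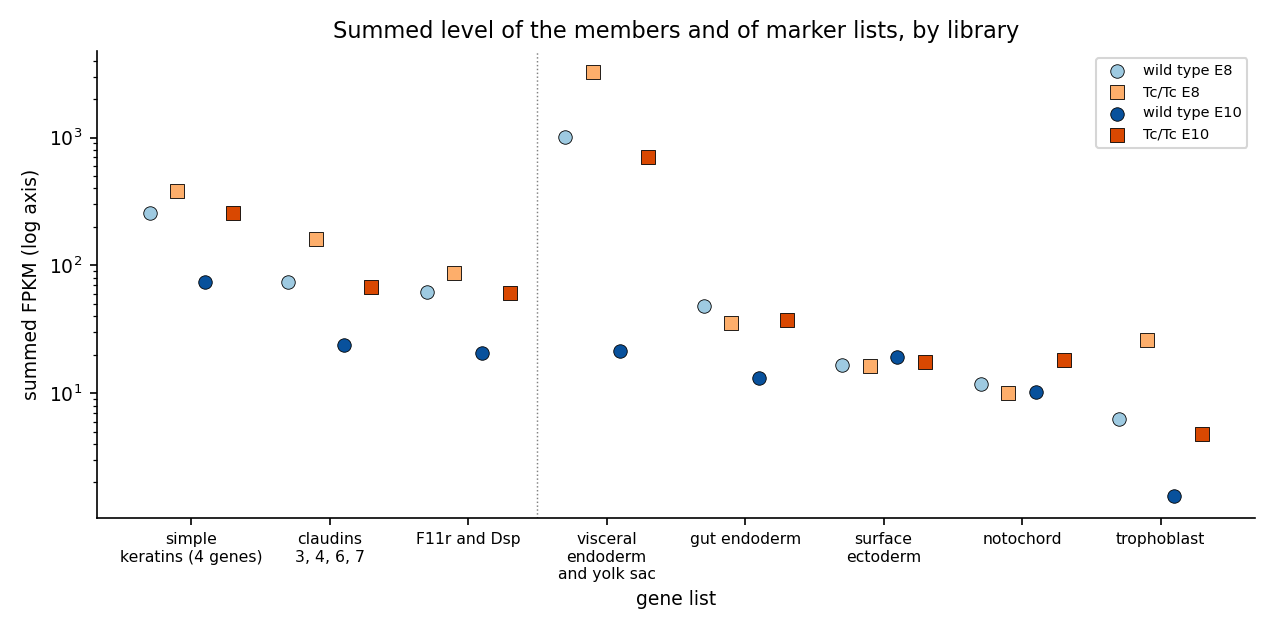
Summed FPKM on a log axis for the simple keratins, the claudins, F11r with Dsp, and marker lists of tissues, in the 4 libraries (1 per group). Wild type E10 is the lowest library for the first 5 lists and for trophoblast; the sums of the visceral endoderm and yolk sac list run from 21.3 to 3257 FPKM and those of surface ectoderm from 16.2 to 19.0.

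The level in Tc/Tc E10 was close to that in wild type E8 for several of the genes, a comparison made after the values were seen and across both stage and genotype. Tc/Tc E10 has no second estimate, so the error of this pair is known for wild type E8 alone. The absolute log2 difference in FPKM was under 0.061, the re-estimation SD of wild type E8, for 4 of 10 genes, where 12.7% of 13512 genes lay within that limit. Under 0.174, the SD measured in the other 2 libraries, lay 6 of 10, against 34.3% of all genes. F11r differed by -0.001, Dsp by -0.04, Cldn4 by -0.04, Krt8 by -0.06, Cldn7 by -0.14 and Cldn6 by -0.16. Krt18 lay outside both limits at -0.21, and Krt7, Krt19 and Cldn3 at 0.68, 1.02 and 1.12.

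The genes whose pattern was most like the mean of the 10 were found by the root mean square difference of centred log2 (FPKM + 1) over the 4 libraries, among 7580 genes that reached 10 FPKM. They were Plp2, a membrane protein gene, at a distance of 0.033, Gprc5c, an orphan receptor gene, at 0.059, Pcbd1, which encodes a pterin dehydratase, at 0.066, Paics, an enzyme of purine synthesis, at 0.072, and Obfc2a at 0.075. Plp2 stood at 27.0, 38.5, 12.3 and 30.4 FPKM. With 4 libraries and so many genes, close profiles arise readily, and the distance is a description. Among the 10 themselves Dsp lay nearest to the mean, at 0.087, then F11r at 0.22, and Krt7 lay farthest, at 0.84, ahead of Cldn3 at 0.65.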

How the data were processed

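Directional mRNA-seq of 4 libraries was used. Per the labels' protocols, TRIzol LS was used for RNA and the ScriptSeq v2 kit for libraries. The submitters' processing notes name Bowtie2, Cuffdiff and mm9, without versions; the gene models behind the values are not stated. The authors deposited FPKM values in 4 pairwise tables; E8 values were taken from the E8 genotype table and E10 values from the E10 genotype table. Second estimates came from the stage tables. In the table of Tc/Tc stages, the header of 1 column reads wild type E10, so it was left unused and Tc/Tc E10 has no second estimate. Genes at 0 in both columns of a table were treated as not estimated. Ratios were log2 of (FPKM + 1) for genes reaching 1 FPKM in either library, with a fold of 2 as the size rule. The 10 genes, the lists and the rules were chosen with earlier results of these data known. All 10 passed the minimum in each comparison and all are named. From each related list at most 3 called genes per stage were named, by size of ratio; other genes were named after their values were seen. How fragments shared by similar paralogs were assigned is not stated. Calculations used Python 3.11.15, pandas 2.3.3 and numpy 2.4.6, and the size rule was tested on simulated data.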

Additional observations from a re-analysis of the deposited data

Results flagged for a closer look

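Krt7 and Cldn4 had genotype ratios of opposite sign at the 2 stages, in both sets of estimates. For Krt7 the log2 ratio of Tc/Tc over wild type was -0.72 at E8 and 0.70 at E10, and for Cldn4 it was -0.34 at E8 and 0.82 at E10. None of these passed the fold of 2, and the difference between stages was not tested.

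Krt19 and Cldn4 had stage ratios of opposite sign in the 2 genotypes. For Krt19 the log2 ratio of E10 over E8 was -0.99 in wild type and 0.68 in Tc/Tc. For Cldn4 it was -0.86 in wild type and 0.30 in Tc/Tc. The signs also differed for the weakly expressed Cldn3, at 0.57 in wild type and -0.20 in Tc/Tc. For Krt7 they differed with the first estimates alone, at -0.07 and 1.36. These ratios come from the same 4 libraries as the genotype ratios, and the difference between genotypes was not tested.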

How the results depend on the processing

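Of the 10 genes, the 7 called higher at E10 and the 6 called lower with stage in wild type stayed within 1.5 times those counts under all 9 alternatives. The counts were not unchanged. At a fold of 1.5 Cldn4 and Krt7 were also called higher at E10, and Krt19 and Cldn4 also lower with stage in wild type. At a fold of 3 Cldn7 and Dsp were called in neither comparison. At E8 the count of 1 higher became 2 with a pseudocount of 0.1 FPKM, 5 at a fold of 1.5 and 0 at a fold of 3, and the count of 0 lower became 1 at a fold of 1.5. For Tc/Tc stages, 1 higher became 2 at a fold of 1.5 and 0 at a fold of 3, and 2 lower became 4 at a fold of 1.5 and 1 at a fold of 3 or with equal totals. Over 276 single-gene values under alternatives, 270 stayed on their side of the fold of 2. Part of this was fixed in advance, since another minimum level only filters genes and cannot move a ratio. The ratios of Krt8, Krt18, Cldn4 and Cldn6 were also the same in both sets of estimates. Of the 276 values 6 changed sign, all from main values within the rule (Dsp at E8, Cldn3 at E10 and Krt7 across stages in wild type). No paired analysis was possible because each group has 1 library. Without replicates and fragment counts, no difference can be set against the spread between embryos, and low genes such as Cldn3 are the least certain.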
